A study of Rattus norvegicus with 8 samples.

Results

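Adrenomedullin and the calcitonin gene-related peptides (CGRP) are secreted peptides of the calcitonin family. Adm encodes adrenomedullin, Calca encodes calcitonin and alpha-CGRP by alternative splicing, and Calcb encodes beta-CGRP. The peptides share a receptor core, the calcitonin receptor-like receptor encoded by Calcrl, and a receptor activity-modifying protein decides which peptide it prefers: Ramp1 with the core makes the CGRP receptor, and Ramp2 or Ramp3 makes the adrenomedullin receptors. These receptors couple to the G protein Gs and raise cyclic AMP. In the inner ear CGRP is best known from efferent nerve endings, and adrenomedullin is made by many epithelia and by endothelium, where hypoxia and glucocorticoids are known to raise its transcript.

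The values are those of every probe set annotated to these 7 genes on an Affymetrix rat expression array, 10 probe sets of the 15866 that are not array controls. The genes were chosen from a dexamethasone difference already seen in these data, so their dexamethasone values are a description and carry no test. The RNA came from primary cultures of semicircular canal duct (SCCD) epithelium, the ion-transporting lining of the vestibular canals, taken from neonatal Wistar rats and grown on permeable supports. The control group was untreated (n = 4) and the other group received 100 nM dexamethasone, a synthetic glucocorticoid (n = 4), with 1 array per sample. The exposure time of the array samples is not given in the sources used here, and no source says which samples came from separate animals or dissections, so the p-values measure only the spread between these samples. A culture dissected from the canals can hold other cells, and in such bulk RNA fewer cells of a type and less RNA per cell cannot be told apart.

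Signals are in arbitrary units, and every array was rescaled to a trimmed mean of 500. Replicates 1 and 2 of both groups were deposited at that scale and replicates 3 and 4 were not, with trimmed means of 202 to 336; these are called the first and second array set below, and no source says how they differ otherwise. All 8 epithelial markers on the array passed the filter, and Epcam, an epithelial adhesion molecule, lay between 8734 and 11781 on the 8 arrays. Sgk1, a kinase gene induced directly by glucocorticoids, rose from 370 ± 67.2 to 3358 ± 409 (mean ± SD, n = 4 each), by 3.19 on the log2 scale (limma, adjusted p = 1.09e-06). Fkbp5, a glucocorticoid receptor co-chaperone, rose by 2.14 (adjusted p = 3.17e-05), and Tsc22d3, which encodes the leucine zipper protein GILZ, rose by 2.16 (adjusted p = 4.13e-05). The 3' to 5' signal ratio of beta-actin, a measure of RNA integrity, ran from 8.10 to 13.7 in control and from 6.17 to 8.07 with dexamethasone, with no overlap. The same ratio of Gapdh did overlap: untreated arrays spanned 2.10 to 3.79, and all treated arrays lay inside that span (2.14 to 3.18). Of these ratios, only that of beta-actin was used as a covariate below. To read weak signals, 64 probe sets of 54 genes with no known place in an epithelium served as a silent level: their 95th percentile was 240 to 407 depending on the array. Without the 5 probe sets of Myh1, a skeletal myosin that read 197 to 893, that percentile was 103 to 189.

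The ligands of the family moved in opposite directions with dexamethasone, and Calcrl (1369648_at), Ramp1 and Ramp2 had intervals that span 0. The geometric mean signal of Adm was 7.24-fold higher, from controls that did not exceed the silent level. Counted from that level the rise was 0.38 on the log2 scale, a value without an interval that depends on the level used. Calcb, above the silent level on every array, fell to 33.0% of control. Of the 3 probe sets of Calca, 1 was called and read 38.9% of control, with all of its signals under the silent level. Of the 10 probe sets, 7 passed the filter of a mean signal of 100, and 3 of the 7 were called at an adjusted p under 0.05, against 279 of 10368 probe sets (2.69%) on the whole array. That was 1 rise, with 1.88% of all probe sets called higher, and 2 falls, with 0.81% called lower. The groups did not overlap for 1 rise and 3 falls among the 7, and for 5.57% and 5.46% of all probe sets in those directions. The median log2 difference of the 7 was -0.09 and that of all probe sets was -0.02. Since this contrast chose the genes, nothing is read from these shares.

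**Figure D1:**
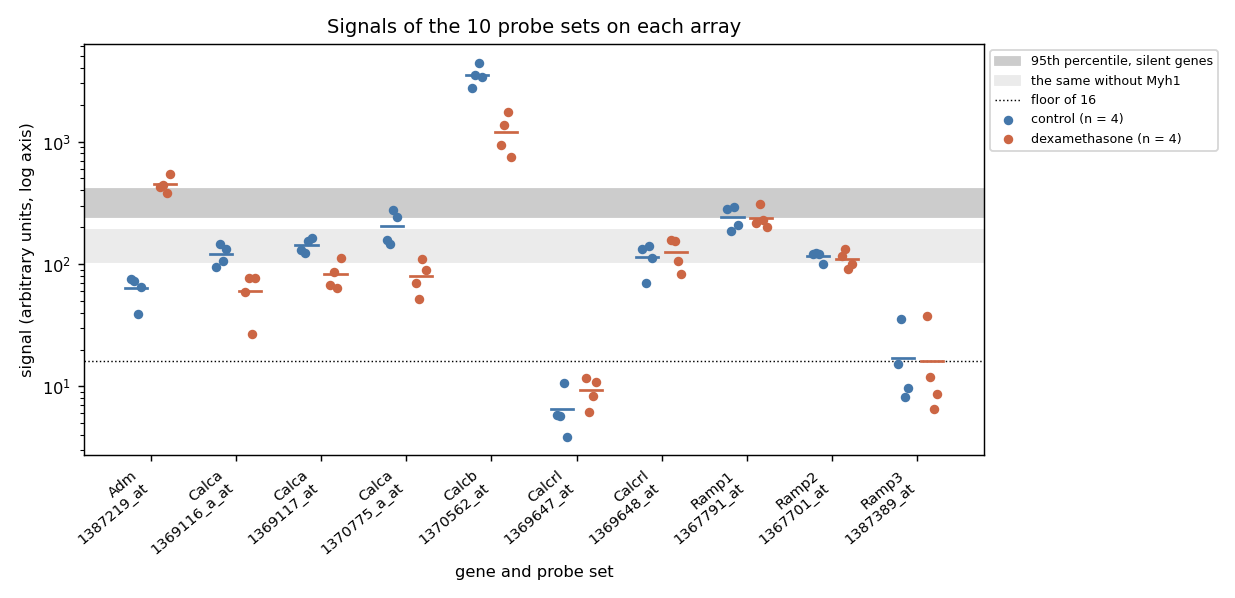
Signals of the 10 probe sets on each array, on a log axis in arbitrary units, with control arrays in blue, dexamethasone arrays in orange and a bar at each group mean (n = 4). The bands give the range of the silent level (95th percentile) with and without Myh1, and the dotted line is the floor of 16; Adm with dexamethasone (379 to 541) sits clear of its controls (38.9 to 75.4), and Calcb lies above both bands in both groups.

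Adm, the adrenomedullin precursor, was measured by 1 probe set (1387219_at). Its signals were 75.4, 73.2, 38.9 and 65.4 on control replicates 1 to 4 and 427, 439, 379 and 541 on dexamethasone replicates 1 to 4. Every dexamethasone array read higher than every control array. The means were 63.2 ± 16.8 and 446 ± 68.0 (SD, n = 4 each), a log2 difference of 2.86 (SE 0.23, 95% interval 2.35 to 3.36). Among all probe sets past the filter it ranked 5 by size of rise. The difference was 2.54 in the first array set and 3.17 in the second, and leaving out 1 array at a time gave 2.64 to 2.96.

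The control level of Adm was low. No control array put Adm above the 95th percentile of the silent genes, whereas all 4 dexamethasone arrays did, and the gene passed the filter only through that group. Measured from that percentile rather than from its own control signals, Adm was higher with dexamethasone by 0.38 on the log2 scale. When Myh1 was left out of the silent genes, that value was 1.56 (2.94-fold). Both are values without an interval and depend on the level used. The highest silent signals on dexamethasone replicates 1 to 4 were 893, 700, 510 and 518, and Adm exceeded them on replicate 4 only (541). With the beta-actin ratio as a covariate the log2 difference was 2.29.

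The promoter of Adm is printed because it belongs to the ligand that rose, and that of Calca because it is the falling ligand with an entry in the table used, RefSeq on build GRCr8. Each window runs from 250 bases before to 20 bases after the listed transcription start. Capitals mark 4 short motifs searched on both strands. The glucocorticoid motif is AGAACA, a single arm of the element that the glucocorticoid receptor binds. The hypoxia motif is ACGTG, the core of the element bound by hypoxia-inducible factors. The cAMP motif is TGACG, an arm of the element bound by CREB. The last is TATAA, the core of the TATA box. The Adm window is chr1:174179950-174180219 on the plus strand and the Calca window is chr1:178317510-178317779 on the minus strand.
Adm: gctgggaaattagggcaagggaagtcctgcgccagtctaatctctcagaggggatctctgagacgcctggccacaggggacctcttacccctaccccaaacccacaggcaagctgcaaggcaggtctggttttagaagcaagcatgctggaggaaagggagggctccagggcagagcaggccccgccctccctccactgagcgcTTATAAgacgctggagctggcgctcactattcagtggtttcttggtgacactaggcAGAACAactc
Calca: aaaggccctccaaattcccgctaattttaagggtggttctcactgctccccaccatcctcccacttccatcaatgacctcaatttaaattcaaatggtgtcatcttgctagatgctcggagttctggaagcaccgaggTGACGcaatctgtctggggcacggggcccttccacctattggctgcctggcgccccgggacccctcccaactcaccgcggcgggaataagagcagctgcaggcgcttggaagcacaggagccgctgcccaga

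The Adm window holds the glucocorticoid motif at position 11 of the transcript. It also holds the TATA motif on both strands, overlapping, with first bases at -45 and -46 from the start. The Calca window holds the cAMP motif at -112 and no other. The hypoxia motif was in no window of the 5 members with an entry, and the windows of Ramp1 and Ramp3 held none of the 4 motifs. Of all 33469 promoters in the table, 18.8% hold the glucocorticoid motif in the same window, 17.7% the hypoxia motif, 19.6% the cAMP motif and 24.9% the TATA motif, so each match is common. Calcrl, whose signal did not differ beyond its error, also holds the glucocorticoid motif, at -222 on the minus strand. Calcb and Ramp2 have no entry in the table.

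Calcb, the beta-CGRP precursor, read above the silent level on all 8 arrays. Its probe set (1370562_at) read 2719, 3478, 4414 and 3387 on the control arrays and 947, 1370, 1743 and 745 with dexamethasone. The highest dexamethasone array was below the lowest control array. The means were 3499 ± 697 and 1201 ± 445 (SD, n = 4 each), a log2 difference of -1.60 (SE 0.23, 95% interval -2.11 to -1.09), or 3.03-fold lower. Among all probe sets past the filter it ranked 7 by size of fall. The fall was -1.43 in the first array set and -1.76 in the second, and leaving out 1 array at a time gave -1.80 to -1.39. It was not called on the signals as deposited (-1.43), with no filter (-1.60), in the second array set alone (-1.76) or with the beta-actin ratio as a covariate (-1.16).

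Calca, which yields calcitonin and alpha-CGRP, was measured by 3 probe sets, and all 3 read lower on every dexamethasone array than on any control array. The probe set 1370775_a_at read 156, 147, 277 and 242 in control and 69.7, 51.5, 111 and 88.6 with dexamethasone, a log2 difference of -1.36 (SE 0.29, 95% interval -2.00 to -0.73). It was called and ranked 20 by size of fall. The probe set 1369117_at read 129, 122, 153 and 163 in control and 67.3, 85.5, 64.0 and 112 with dexamethasone, a log2 difference of -0.81 (SE 0.24, 95% interval -1.34 to -0.29), and was not called. The probe set 1369116_a_at, under the filter, read 94.7, 147, 105 and 133 in control and 58.5, 76.1, 27.0 and 76.8 with dexamethasone, a log2 difference of -1.10 (SE 0.37, 95% interval -1.96 to -0.23). The intervals of the 3 falls overlapped.

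None of the Calca signals exceeded the 95th percentile of the silent genes on any array, so these falls took place at a level that some of the silent probe sets also reached. Without Myh1, 1370775_a_at exceeded that percentile on 2 control arrays, and 1369117_at and 1369116_a_at on 1 control array each. No Calca signal did so with dexamethasone. The call of 1370775_a_at was lost when control replicate 3 or 4 or dexamethasone replicate 1, 2 or 4 was left out, with differences of -1.20, -1.26, -1.31, -1.17 and -1.43. With the beta-actin ratio as a covariate its difference was -0.86 and not called. Calca and Calcb are near-identical over the CGRP part, and whether Calcb transcript contributed to the Calca signals was not tested.

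**Figure D2:**
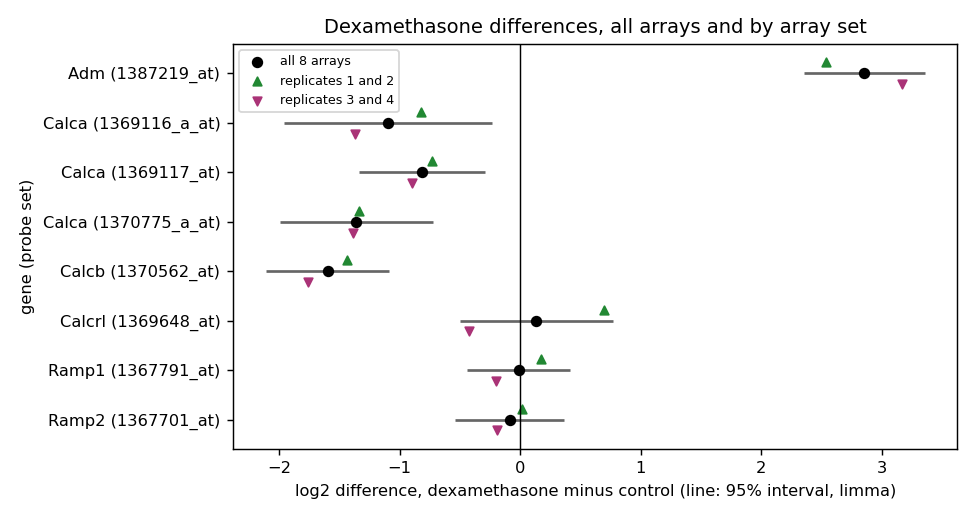
Log2 differences, dexamethasone minus control, for the 8 probe sets that were not mostly at the floor, with limma's 95% interval over all 8 arrays as a line and the differences within replicates 1 and 2 and within replicates 3 and 4 as triangles. Adm lies at 2.86, the Calca and Calcb probe sets lie between -1.60 and -0.81, and the intervals of Calcrl, Ramp1 and Ramp2 span 0.

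Calcrl, the receptor core for both peptides, read 132, 69.5, 141 and 112 in control and 156, 153, 106 and 82.6 with dexamethasone on probe set 1369648_at. The groups overlapped, and the log2 difference was 0.14 (SE 0.29, 95% interval -0.50 to 0.77). Its sign differed between the array sets, 0.69 in the first and -0.42 in the second. The second probe set of the gene, 1369647_at, read 3.87 to 11.8 over the 8 arrays, under the floor of 16 throughout, so it gives no difference.

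Ramp1, the partner for the CGRP receptor, read 282, 186, 294 and 208 in control and 217, 306, 231 and 202 with dexamethasone (1367791_at). The groups overlapped, with means of 243 ± 53.5 and 239 ± 46.3 (SD, n = 4 each) and a log2 difference of -0.01 (95% interval -0.44 to 0.41). No array put Ramp1 over the 95th percentile of the silent genes, but all 8 did when Myh1 was left out. It was the single receptor part of which that was so.

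Ramp2, a partner for the adrenomedullin receptor, read 122, 124, 120 and 100 in control and 117, 132, 91.0 and 101 with dexamethasone (1367701_at). Its log2 difference was -0.09 (95% interval -0.54 to 0.36), and none of its signals exceeded the silent level with or without Myh1. Ramp3, the other adrenomedullin partner, read 15.1, 35.2, 8.17 and 9.68 in control and 37.5, 12.0, 6.49 and 8.69 with dexamethasone (1387389_at). Of these 8 signals 6 were under the floor, and no difference is given. The intervals of Calcrl, Ramp1 and Ramp2 bound differences of signal, and since none of these exceeded the silent level on any array they do not bound a change of transcript. Without Myh1, Ramp1 exceeded that level on all 8 arrays, so for Ramp1 this limit depends on the level used. Calcrl exceeded the level without Myh1 on 1 control and 1 dexamethasone array.

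The array sets give a comparison that did not choose the genes. With treatment in the model, 362 of 10368 probe sets (3.49%) differed between the second and the first set in limma, and 0 of the 7 probe sets of the family did. The nearest was Calca 1370775_a_at, higher in the second set by 0.75 (SE 0.18, adjusted p = 0.0517). The other 6 had adjusted p-values of up to 0.859. Whether the dexamethasone difference itself changed between the sets was tested as an interaction in limma: 0 of 10368 probe sets (0%) passed, while 587 had an unadjusted p under 0.05. Among them was 1 of the family, Calcrl, whose difference was lower by 1.11 in the second set (unadjusted p = 0.0446, adjusted p = 0.787), and the adjusted p-values of the 7 ran from 0.787 to 0.983.

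Between the family's own probe sets, correlations over the 8 arrays take in the group difference. Adm and Calcb had a Pearson r of -0.95, and Calca 1370775_a_at and Calcb one of 0.84. Within the groups, as deviations from the group means, these became -0.70 and 0.29. Calcrl and Ramp1, the core and the partner of the CGRP receptor, had r of 0.76 over the arrays and 0.77 within the groups. The strongest correlation within the groups was that of Calca 1370775_a_at with Ramp2, -0.81, where over the arrays r was -0.19. These are descriptions over 8 arrays that share their scaling and their 2 treatment groups, among 21 pairs of the family's probe sets.

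Among all named genes, those most like Adm over the 8 arrays were Sgk1 (r = 0.99), Ppp3r1 (0.99), a calcineurin subunit, and Kdr (0.99), a receptor for vascular endothelial growth factor. For Calcb they were Psmd1, Kif3a and Arl10 (0.97 to 0.99), and for Calca 1370775_a_at Acp5, Pomp and Snrpa (0.97 to 0.99). None of these 6 was called with dexamethasone. For Calcrl they were Ybey, Txnrd3 and C5h9orf152 (0.94 to 0.95), for Ramp1 Serpinb9b, Nsmf and Zcchc12 (0.92 to 0.94), and for Ramp2 Impact, Svs1 and Sepsecs (0.98 to 0.99). By deviations from the group means the nearest to each were Psen2 for Adm (0.98), Kif3a for Calcb (0.97), Psmc2 for Calca (0.99), Dcaf4 for Calcrl (0.97), Elk3 for Ramp1 (0.98) and Palm for Ramp2 (0.99). With 8 arrays and the many probe sets of other named genes past the filter compared, the highest r is large whatever the gene.

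The other genes of the pathway were followed as 5 lists, of which 69 genes were on the array and 53 passed the filter. In all, 3 rose and 0 fell at an adjusted p under 0.05 in limma. Of all probe sets 1.88% rose and 0.81% fell, and the counts of each list are read against those shares. Among the relatives of the ligands and receptors, 1 of 3 tested rose: Ackr3, an atypical chemokine receptor that also takes up adrenomedullin. It read 607, 583, 427 and 941 in control and 1382, 1250, 1267 and 1716 with dexamethasone, without overlap. Its means were 640 ± 216 and 1404 ± 216 (SD, n = 4 each), a log2 difference of 1.18 (SE 0.21, adjusted p = 0.0093). Calcr, the calcitonin receptor, had a difference of 0.30 (adjusted p = 0.56) and lay under the silent level on all 8 arrays, though on 3 dexamethasone arrays above it without Myh1.

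Of 12 tested genes that cut, amidate or break down peptide hormones, 0 passed in limma, and 2 had an unadjusted p under 0.05. Those 2, named here after their values were seen, were Pcsk5 (0.51) and Mme (-0.37). Their adjusted p-values were 0.279 and 0.206, and their groups overlapped. The examples with the strongest signals were Cpe, which trims peptide precursors (-0.12, adjusted p = 0.81), and Dpp4, a peptidase of the cell surface (-0.08, adjusted p = 0.832). Of 14 tested genes of Gs and cyclic AMP signalling 0 passed in limma, and 3 had an unadjusted p under 0.05. Those 3, also named after their values were seen, were Pde7a (0.46), Adcy2 (-0.44) and Prkar2b (0.29). Their adjusted p-values were 0.0615, 0.172 and 0.275. Their groups did not overlap, as for 5.57% of all probe sets upward and 5.46% downward. Gnas, which encodes the Gs alpha subunit, differed by -0.06 (adjusted p = 0.815) and Prkar1a, a regulatory subunit of protein kinase A, by -0.18 (adjusted p = 0.489). Of 7 tested genes of receptor desensitisation and trafficking 0 passed in limma, and 1 had an unadjusted p under 0.05. That was Grk5 (0.61, adjusted p = 0.125), likewise named after its values were seen, and its groups did not overlap. Grk5 lay under the silent level on every array, though without Myh1 it exceeded that level on 1 control and 3 dexamethasone arrays. Rab11a, a recycling GTPase, differed by -0.08 (adjusted p = 0.691), and Rab5a, an early endosome GTPase, by 0.25 (adjusted p = 0.413).

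Hypoxia-induced genes are the class to which Adm is usually assigned, and 2 of 17 tested rose while 0 fell. Ddit4, an inhibitor of mTORC1 that glucocorticoids are also known to induce, rose by 0.64 (SE 0.13, adjusted p = 0.0248), from 1129 ± 48.6 to 1786 ± 337. Slc2a1, the glucose transporter GLUT1, rose by 0.77 (SE 0.18, adjusted p = 0.0414), from 1054 ± 236 to 1795 ± 374. In all, 6 of the 17 had an unadjusted p under 0.05. The other 4, named here after their values were seen, were Pfkfb3 (0.65), Egln3 (0.58), Bnip3 (0.29) and Tfrc (-0.62), with adjusted p-values of 0.216, 0.125, 0.169 and 0.102, and their groups did not overlap. Of all probe sets, 5.57% were higher and 5.46% lower with dexamethasone without overlap. Pfkfb3 lay under the silent level on every array, though without Myh1 it exceeded that level on 1 control and 2 dexamethasone arrays. The share of all probe sets with an unadjusted p under 0.05 is not given. Nothing is therefore read from the unadjusted counts of this list or the others. The list's median difference was 0.05, beside -0.02 over all probe sets. Of 7 tested glucocorticoid-induced genes, 6 were called higher and 0 lower, with a median of 1.62, Klf9 (1.39) among them. The remaining gene, Cdkn1a, named after its values were seen, was lower by -0.44 (adjusted p = 0.118 in limma) without overlap of the groups. The 3 calls of the pathway lists became 0 on the signals as deposited, with no filter, in the second array set alone and with the beta-actin ratio as a covariate, and 1 when control replicate 2 or 3 or dexamethasone replicate 3 or 4 was left out.

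**Figure D3:**
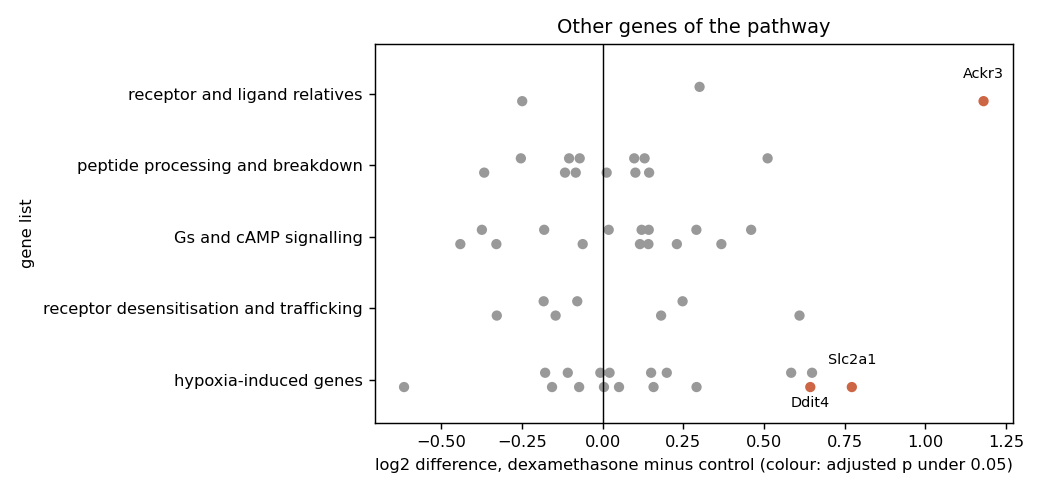
Log2 differences, dexamethasone minus control, of the 53 genes past the filter in the 5 pathway lists, 1 point a gene (n = 4 arrays a group). The 3 genes in colour, Ackr3, Ddit4 and Slc2a1, passed at an adjusted p under 0.05 and lie at 1.18, 0.64 and 0.77.

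Markers of other cells that make these peptides were read beside the family. Of 9 endothelial markers on the array, 3 passed the filter, and Kdr rose by 2.00 (limma, adjusted p = 2.98e-05) while Flt1, the other receptor for vascular endothelial growth factor, fell by 1.96 (adjusted p = 0.02). The summed endothelial signal ran from 1236 to 1540 on control arrays and from 3026 to 3655 on treated ones. Kdr alone made up 492 to 844 and 2528 to 3028 of those sums, and no other endothelial marker was called higher. The defining endothelial markers Pecam1 (8.49 to 55.7), Vwf (11.0 to 93.3) and Eng (12.7 to 19.9) stayed under the silent level on all 8 arrays, with or without Myh1. Flt1 and Esam, an endothelial adhesion molecule (127 to 292), were also under it, but without Myh1 Flt1 exceeded it on 3 control arrays and 0 dexamethasone arrays, and Esam on 4 and 3. The part of endothelial RNA in the Adm difference was not tested. Of 8 markers of neurons and Schwann cells, which include the known CGRP-containing cells, 3 passed the filter and 0 were called in limma or had an unadjusted p under 0.05, with sums of 1136 to 1540 and 1036 to 1582. The neuronal markers Snap25 (12.1 to 64.2), Stmn2 (29.7 to 59.5) and Prph (112 to 177) lay under the silent level on all 8 arrays, though without Myh1 Prph exceeded it on 3 control and 2 dexamethasone arrays. S100b, also on this list (469 to 868), lay above the silent level on all 8 arrays, and which cells gave its signal was not tested. Sox10, another marker of this list (184 to 358), lay under that level on all 8 arrays but above it on all 8 without Myh1.

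Smooth muscle and pericyte markers summed to 4978 to 5932 in control and 4348 to 5087 with dexamethasone, fibroblast markers to 5568 to 7255 and 4284 to 7308, and 0 of 3 and 0 of 4 tested were called, with 1 in each at an unadjusted p under 0.05. Macrophage markers summed to 784 to 1335 and 1054 to 4301, with 0 of 4 called and 1 at an unadjusted p under 0.05. Cd14, a receptor for bacterial lipopolysaccharide named here after its values were seen, read 291, 338, 168 and 314 in control and 417, 379, 597 and 782 with dexamethasone. Its groups did not overlap, and its log2 difference was 0.96 (SE 0.26, unadjusted p = 0.00333, adjusted p = 0.0809 in limma). Lyz2, macrophage lysozyme, read 3415, 969, 48.8 and 78.4 with dexamethasone and 88.5 to 433 in control. Ptprc, the pan-leukocyte marker CD45, read 28.1 to 52.7 and Cd68 19.3 to 103, both under the silent level on all 8 arrays. The part of macrophage RNA in the Adm and Calcb differences was not tested. Of 8 epithelial markers, Krt18, a keratin, fell by 0.47 (adjusted p = 0.0300) and the other 7 were not called.

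The differences of the ligands were recomputed under other scalings, floors, filters and fits. The values of Adm ran from 2.15 with a floor of 100 to 3.17 in the second array set alone, over 23 alternatives. Those of Calcb ran from -1.80 to -1.03 over 24, and those of Calca 1370775_a_at from -1.53 to -0.86 over 23. Since this contrast chose the genes, the ranges describe how far the values move with the processing and support nothing further.

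**Figure D4:**
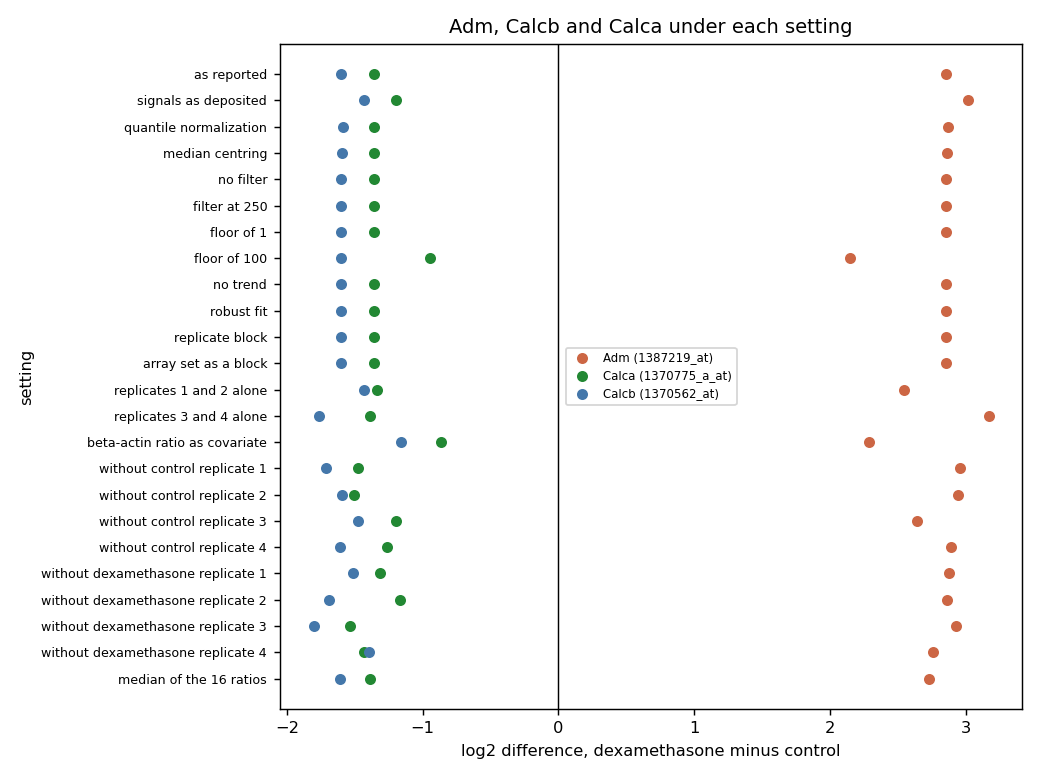
Log2 difference, dexamethasone minus control, of Adm, Calcb and Calca 1370775_a_at under each setting, 1 row a setting. Adm lies between 2.15 and 3.17, Calcb between -1.80 and -1.16 and Calca between -1.53 and -0.86; the setting tried for Calcb alone (-1.03) is not drawn.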

How the data were processed

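Total RNA of 8 samples of primary cultures was labelled by the authors with 2 cycles of in vitro transcription and hybridised to Affymetrix rat arrays. The deposited values are signal intensities on a linear scale, made by the authors with the Affymetrix statistical algorithms; per the labels, arrays were scaled to a target signal of 500, which replicates 3 and 4 did not meet. Here each array was rescaled to a 2% trimmed mean of 500, floored at 16 and converted to log2. Rescaling assumes that most genes did not change, and the floor shrinks differences of weak genes. Array control probe sets (57 of 15923) were left out, and the 10368 probe sets whose mean signal reached 100 were tested; weaker members took their value from a fit over all probe sets. Gene names came from GEO's platform annotation, updated by identifier: 12783 probe sets had 1 gene, 312 several and 2771 none, and none was named from several.

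Tests were limma (3.58.1, R 4.3.3) with a mean-variance trend, two-sided, adjusted by Benjamini-Hochberg over all probe sets tested; the script was tested on simulated data. Each list gene was read from its probe set of highest mean signal. The study's change calls need probe-level data and were not used; the median of the 16 ratios was an alternative. The members, lists and tests were chosen with earlier results of these data known. Named genes are all 7 members, the list genes that passed (up to 4 by smallest p, otherwise the 2 of highest signal), Sgk1, Fkbp5, Tsc22d3 and, for each member past the filter, the 3 named genes of highest correlation by each measure; defining markers were named as background. The number of arrays limits the precision. No protein sequences were used.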

Additional observations from a re-analysis of the deposited data

Results flagged for a closer look

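Of 68 groups of 4 arrays examined over the members and the other named genes, 2 held an array far from the other 3, and chance marks about 1 group in 20. The control signal of Cpe was 4367 on replicate 4 and 2864 to 3028 on the others, a gap of 0.891 of the group's range. The control signal of Krt18 was 13057 on replicate 3 and 9507 to 10032 on the others, a gap of 0.852 of the range. No group of a member did.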

How the results depend on the processing

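Dexamethasone moved 279 probe sets, and 36 on signals as deposited, 102 with no filter, 440 in replicates 1 and 2 alone, 21 in replicates 3 and 4 alone, 578 with the array set as a block, 65 with the beta-actin ratio as a covariate and 179 (without dexamethasone replicate 2; 184 without dexamethasone replicate 1) to 277 with 1 array left out. The 3 family calls became 1 on signals as deposited, with no filter, in replicates 3 and 4 alone and with the beta-actin ratio, and 2 to 3 with 1 array left out. The 3 pathway genes became 0 under those 4 settings, 1 with median centring or without the trend, 5 with the array set as a block or in replicates 1 and 2 alone, and 1 to 3 with 1 array left out. The replicate number as a block gave 484 probe sets, left the 3 family calls at 3 and gave 4 pathway genes. The same-number correlations of deviations were 0.35, 0.25, 0.03 and 0.41. Controls 1 and 2 correlated best with their own number, and controls 3 and 4 with another. Whether the numbers pair the samples cannot be told from these correlations.

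Calca 1370775_a_at was not called on signals as deposited (-1.20), with quantile normalization (-1.36), with no filter (-1.36), with a filter at 250 that leaves it untested (-1.36), in replicates 1 and 2 alone (-1.33), in replicates 3 and 4 alone (-1.39) or with the beta-actin ratio (-0.86), and ran from -1.53 to -1.17 with 1 array left out. Calcb was not called on signals as deposited (-1.43), with no filter (-1.60), in replicates 3 and 4 alone (-1.76), with the beta-actin ratio (-1.16) or with that ratio and without control replicate 3 (-1.03), a setting added after seeing the data. The array set contrast (362) gave 815 with median centring, 92 with no filter, and 23 (without dexamethasone replicate 2) to 1515 (without control replicate 3) with 1 array left out, moving by over 1.5 times for each array except control replicate 4; the interaction (0) gave 4 with no filter and 0 to 469, the last without control replicate 4. These settings and those of the pathway lists were also added after seeing the data. Above the silent level on all 4 arrays were 1 family probe set in control and 2 with dexamethasone; leaving out Myh1 gave 2 and 3, and the highest silent signal in place of the percentile gave 1 and 1. The cause of these changes was not tested, except that a filter at 250 or none changes which probe sets are tested.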
